A study of Mus musculus with 13 samples.

Results

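The NADPH oxidase subunit genes described here are 7 named genes, Cybb, Cyba, Ncf1, Ncf4, Rac2, Cybc1 and Nox4, taken by symbol from a table of 54532 genes, in which each symbol had 1 row. Their transcripts were measured by RNA-seq in inguinal white adipose tissue, a fat pad under the skin of the groin, from 13 mice fasted for 12 h. The SF_HPD group (n = 5) had fragmented sleep and a high-protein diet, in which protein gave 50% of the calories, fat 12% and carbohydrate 38%. The SF_ConD group (n = 5) had fragmented sleep and chow, and the SC_ConD group (n = 3) had undisturbed sleep and chow. Groups were formed by random division with weights matched, and each library came from 1 mouse. The sources used here do not give the strain, sex or age of the mice, or how long and by what method sleep was fragmented. The design asks what fragmented sleep did on chow, and what the diet did under fragmented sleep.

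NADPH oxidases move electrons from NADPH across a membrane to oxygen and so make superoxide or hydrogen peroxide. In the phagocyte enzyme, Cybb (gp91phox, the catalytic subunit) and Cyba (p22phox, its partner) sit together in the membrane, and Cybc1 is a chaperone needed for the Cybb protein to accumulate. On activation Ncf1 (p47phox, the organizer) and Ncf4 (p40phox, which binds a membrane phosphoinositide) move to the membrane together with the GTPase Rac2. Neutrophils, macrophages and B lymphocytes use this enzyme. Nox4 is a second catalytic subunit, which also pairs with Cyba, needs none of the cytosolic subunits and is known from adipocytes, vessel wall and fibroblasts.

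The positions are those of the deposited table, on GRCm38. Cybb lies on chromosome X at 9435252 to 9487771 on the minus strand, Cyba on chromosome 8 at 122424776 to 122432930 (minus), Ncf1 on chromosome 5 at 134220053 to 134229625 (minus) and Cybc1 on chromosome 11 at 121222588 to 121229322 (minus). Ncf4 at 78244801 to 78262580 (plus) and Rac2 at 78559167 to 78572783 (minus) are both on chromosome 15, and Nox4 lies on chromosome 7 at 87246096 to 87398710 (plus). All 7 are protein-coding. The whole of Cyba lies within the opposite-strand gene model Gm20388, which was listed at 0 FPKM in all 13 libraries. Ncf1 shares 4303 bases with the opposite-strand gene Gtf2ird2 (0.504 to 2.54 FPKM), and Cybc1 shares 68 bases with Hexdc (0.335 to 3.23 FPKM). Whether the counting used strand is not stated in these sources, so reads in the shared bases of Ncf1 and Cybc1 are uncertain.

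Promoter windows, from 250 bases before to 50 bases after the start site, were matched in RefSeq sequence (GRCm38.p6) for 5 of the 7 genes, Cybb, Cyba, Ncf1, Cybc1 and Nox4. The windows of Cybb and Cyba are shown because their proteins form 1 membrane complex, and that of Nox4 because Nox4 is the catalytic subunit outside the phagocyte enzyme. The motifs GAGGAA and GGAANNGAAA were sought on both strands. GAGGAA is the core bound by PU.1, the transcription factor of myeloid and B cells, and by other ETS factors. GGAANNGAAA is the composite of an ETS core and an interferon regulatory factor core. Capitals mark the bases of a motif match. The sequences read 5′ to 3′ on the strand of the gene, at chrX:9469275-9469574 (minus), chr8:122432891-122433190 (minus) and chr7:87246399-87246698 (plus).
Cybb: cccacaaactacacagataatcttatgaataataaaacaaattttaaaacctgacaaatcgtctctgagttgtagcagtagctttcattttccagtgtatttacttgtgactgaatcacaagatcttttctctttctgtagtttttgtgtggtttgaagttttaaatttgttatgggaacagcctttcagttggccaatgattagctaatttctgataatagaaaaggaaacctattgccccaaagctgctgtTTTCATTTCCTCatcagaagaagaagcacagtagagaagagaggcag
Cyba: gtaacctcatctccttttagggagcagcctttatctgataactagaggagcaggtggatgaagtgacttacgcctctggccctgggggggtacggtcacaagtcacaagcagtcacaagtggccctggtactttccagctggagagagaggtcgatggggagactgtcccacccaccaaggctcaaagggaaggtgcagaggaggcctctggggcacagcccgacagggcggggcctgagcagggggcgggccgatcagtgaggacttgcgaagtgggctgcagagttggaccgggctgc
Nox4: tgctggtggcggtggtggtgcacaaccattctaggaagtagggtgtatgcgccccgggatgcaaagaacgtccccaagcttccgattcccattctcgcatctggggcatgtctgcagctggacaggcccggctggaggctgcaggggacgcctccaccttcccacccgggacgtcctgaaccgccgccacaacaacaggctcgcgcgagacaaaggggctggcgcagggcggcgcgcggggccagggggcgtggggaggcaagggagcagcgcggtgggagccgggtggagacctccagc
The Cybb window held both motifs on the opposite strand, the core at bases 10 to 15 and the composite at bases 4 to 13 after the start site, so that they overlap. This window lies inside the Cybb gene of the table, whose annotated 5′ end lies further upstream. The Cyba, Ncf1 and Nox4 windows held neither motif, and 1 of the Cybc1 windows held the core. Of 32851 RefSeq promoter windows of this length, 28.3% held GAGGAA and 2.72% held GGAANNGAAA. A match is a stretch of letters and was not tested for binding.

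The libraries held 14815592 to 18303302 reads in genes, counted by recovering whole reads from the FPKM values. Several libraries stood apart in their cell content. The library labelled SF_HPD 2 had 26.1 FPKM of Adipoq, the fat cell hormone adiponectin, against at least 666 in the other libraries, and its adipocyte marker list averaged 3.87 on the log2(FPKM + 1) scale, against at least 7.30. It also held 6966 FPKM of Upk3a and 8653 of Psca, genes of bladder epithelium chosen after their values were seen, which reached at most 51.0 and 3.64 FPKM in the other libraries. This library goes against its tissue label. Fold changes of several members are given with and without it, and those of the other gene lists only with it. A set of 5 libraries, SF_HPD 4 and 5 and SF_ConD 1, 4 and 5, was rich in B cell transcripts, with a 12-gene B cell marker list at 3.51 to 4.58 (mean log2(FPKM + 1)), against 0.07 to 1.14 in the other 8 libraries. No SC_ConD library was among them. T and NK cell markers moved with them, at 3.41 to 5.14 against 0.18 to 1.28. SC_ConD 2 and 3 held 4223 and 1614 FPKM of the liver gene Alb, against at most 88.3 elsewhere, and SF_HPD 4 and SC_ConD 3 held 6792 and 1306 FPKM of the skeletal muscle gene Acta1. In bulk tissue, fewer cells of a type and less RNA per cell cannot be told apart.

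Cyba was the most abundant of the 7 transcripts, in FPKM, a level per length of transcript, and it was the highest in all 13 libraries. By median FPKM over the 13 libraries the order was Cyba (89.1), Rac2 (7.34), Ncf1 (7.06), Cybc1 (6.99), Ncf4 (3.44), Cybb (3.23) and Nox4 (0.726). Cyba exceeded Rac2 by 3.12 ± 1.94 on the log2 scale (mean ± SD of the ratio within a library, n = 13), and Cybb exceeded Nox4 by 2.02 ± 1.39, in 11 of 13 libraries. The neighbours between them were not separated beyond their spread: the log2 ratio within a library was 0.97 ± 2.11 for Rac2 over Ncf1, -0.61 ± 1.16 for Ncf1 over Cybc1, 1.20 ± 1.68 for Cybc1 over Ncf4 and 0.36 ± 1.61 for Ncf4 over Cybb. Nox4 was the lowest in 9 of 13 libraries and rested on 14 to 194 reads. All 7 genes passed the filter used for testing, which asks for 1 FPKM or more in 3 or more libraries, as did 14421 genes of the table, but Nox4 passed with just 3 libraries, SF_HPD 3, SC_ConD 1 and SC_ConD 3.

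**Figure D1:**
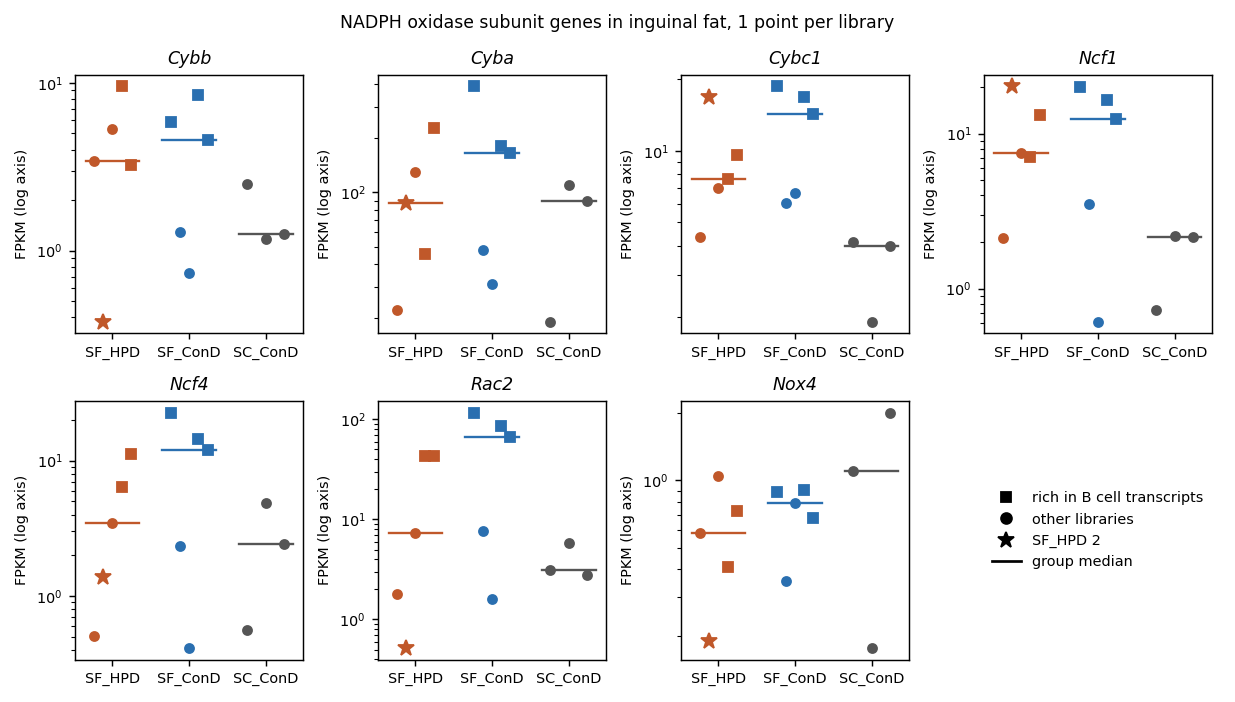
FPKM (log axis) of each oxidase gene in SF_HPD, SF_ConD and SC_ConD libraries, with 1 point per library and a line at each group median; squares are the 5 libraries rich in B cell transcripts and the star is the library labelled SF_HPD 2. For Rac2 the squares lie between 42.6 and 117 FPKM and all other points at or below 7.73.

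The membrane subunits varied widely within each group. Cybb was at 3.43, 0.378, 5.29, 9.53 and 3.23 FPKM in SF_HPD libraries 1 to 5, at 5.87, 1.29, 0.738, 8.45 and 4.54 in SF_ConD libraries 1 to 5, and at 2.50, 1.17 and 1.26 in SC_ConD libraries 1 to 3. The groups overlap, and the lowest value of all is the library labelled SF_HPD 2, with 19 reads. Cybb averaged 4.37 ± 3.38 FPKM in SF_HPD, 4.18 ± 3.22 in SF_ConD and 1.64 ± 0.75 in SC_ConD (SD, n = 5, 5 and 3). Without the library labelled SF_HPD 2, the SF_HPD mean was 5.37 ± 2.92 (SD, n = 4).

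Cyba was at 22.1, 87.5, 130.4, 45.3 and 229 FPKM in SF_HPD libraries, at 389, 48.0, 30.9, 182 and 165 in SF_ConD libraries, and at 19.2, 109.8 and 89.1 in SC_ConD libraries. Each group had a library at or below 30.9 FPKM and another at or above 109.8 FPKM, so that no 2 groups were apart. The range within SF_ConD was 12.6-fold, and the means were 102.9 ± 81.9 in SF_HPD, 163 ± 143 in SF_ConD and 72.7 ± 47.5 in SC_ConD.

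Among the 7 genes, Cybc1, the chaperone, had the clearest separation of groups. It was at 4.32, 16.9, 6.99, 7.61 and 9.63 FPKM in SF_HPD libraries, at 18.7, 6.01, 6.62, 16.9 and 14.4 in SF_ConD libraries, and at 4.15, 1.92 and 3.99 in SC_ConD libraries. Every library of fragmented sleep lay above every SC_ConD library, although SF_HPD 1 exceeded SC_ConD 1 only narrowly. No overlap with SC_ConD held for 3.6% of all genes in SF_ConD and for 1.64% in SF_HPD. The share for both groups together was not computed, so the separation is not read as particular to Cybc1. The means were 9.09 ± 4.77 in SF_HPD, 12.5 ± 5.87 in SF_ConD and 3.35 ± 1.25 in SC_ConD. Without the library labelled SF_HPD 2, the SF_HPD mean was 7.14 ± 2.19 (SD, n = 4). The 5 libraries rich in B cell transcripts were at 7.61 to 18.7 FPKM. The others were at most at 6.99, apart from the library labelled SF_HPD 2. No SC_ConD library was among the 5, and the part of B cell content in the separation of groups was not tested.

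Among the cytosolic subunits, Ncf1 was at 2.11, 20.2, 7.46, 7.06 and 13.2 FPKM in SF_HPD libraries, at 20.0, 3.51, 0.613, 16.4 and 12.5 in SF_ConD libraries, and at 0.729, 2.18 and 2.16 in SC_ConD libraries. The SC_ConD libraries are all low, but SF_HPD 1 and SF_ConD 3 lie as low as they do. Ncf4 was at 0.510, 1.37, 3.44, 6.43 and 11.3 FPKM in SF_HPD libraries, at 22.7, 2.35, 0.414, 14.5 and 12.0 in SF_ConD libraries, and at 0.558, 4.85 and 2.44 in SC_ConD libraries. For Ncf4 the highest 5 values are those of the 5 libraries rich in B cell transcripts, at 6.43 to 22.7 FPKM, and the other 8 libraries reach at most 4.85.

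Rac2 had the widest range of the 7 genes, 224-fold over the 13 libraries and 72.2-fold over the 12 without the library labelled SF_HPD 2, in which it rested on 14 reads. It was at 1.80, 0.521, 7.34, 43.0 and 42.6 FPKM in SF_HPD libraries, at 117, 7.73, 1.62, 86.6 and 67.3 in SF_ConD libraries, and at 3.12, 5.79 and 2.78 in SC_ConD libraries. The 5 libraries rich in B cell transcripts averaged 71.2 ± 31.4 FPKM (SD, n = 5), and the other 8 averaged 3.84 ± 2.75 (SD, n = 8), with no overlap. Rac1, the closely related GTPase made by most cells, was at 31.0 to 53.9 FPKM in all 13 libraries, so the Rac2 to Rac1 ratio spanned 0.0128 in the library labelled SF_HPD 2 to 3.03 in SF_ConD 1. The split by B cell transcripts was made from the data and is a description of these libraries. The share of all genes that separate in the same way was not computed, so the separation is not read as particular to Rac2, Ncf4 or Cybc1.

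Nox4 was at 0.580, 0.191, 1.05, 0.411 and 0.726 FPKM in SF_HPD libraries, at 0.889, 0.356, 0.796, 0.911 and 0.678 in SF_ConD libraries, and at 1.10, 0.178 and 2.01 in SC_ConD libraries. SC_ConD holds both the highest and the lowest value. In the 5 libraries rich in B cell transcripts Nox4 averaged 0.723 ± 0.202 FPKM, and in the other 8 it averaged 0.783 ± 0.613, so it had none of the split seen in Rac2 and Ncf4.

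**Figure D2:**
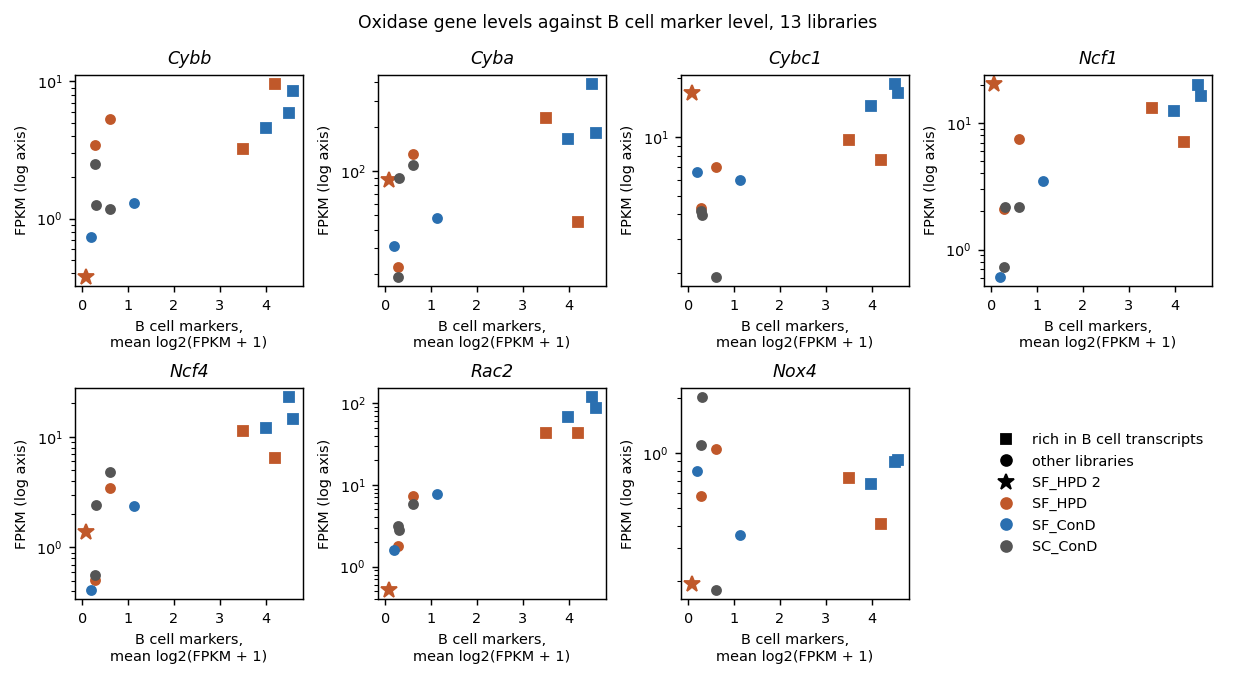
FPKM of each oxidase gene (log axis) against the mean log2(FPKM + 1) of 12 B cell markers, with 1 point per library coloured by group; squares are the 5 libraries rich in B cell transcripts. Rac2 and Ncf4 are higher in all 5 squares than in all other points. Cybc1 is higher in all 5 squares than in all other points but the library labelled SF_HPD 2 (star). Ncf1 is also high in the star, and Nox4 has no such split. The share of all genes with this split was not computed.

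Under fragmented sleep on chow, 6 of the 7 genes were higher than under undisturbed sleep and Nox4 was lower, but none passed the test. In limma on log2(FPKM + 1) with Benjamini-Hochberg adjustment, 0 of 14421 genes passed an adjusted p of 0.05 (0%) and 828 (5.74%) had an unadjusted p under 0.05. Cybc1 was the 1 member among these, with a log2 fold change of SF_ConD over SC_ConD of 1.55 (SE 0.45, unadjusted p = 0.0043, adjusted p = 0.716). Its groups did not overlap, which held for 3.6% of all genes. Rac2 was 2.55 higher on this scale (SE 1.34, unadjusted p = 0.0802, adjusted p = 0.890) and Ncf1 was 1.65 higher (SE 0.80, unadjusted p = 0.058, adjusted p = 0.872). The differences of the other genes were smaller than or near their errors, at 1.24 (SE 0.91) for Ncf4, 0.95 (SE 0.93) for Cyba, 0.73 (SE 0.65) for Cybb and -0.19 (SE 0.31) for Nox4. Single libraries moved several of these: Cyba was at 0.18 without SC_ConD 1 and 0.50 without SF_ConD 1, Ncf4 at 0.73 and 0.82 without the same libraries, Cybb at 0.44 without SF_ConD 4, and Nox4 at -0.55 without SC_ConD 2 and -0.11 without SF_ConD 2. Without SC_ConD 2 and 3, the libraries rich in liver transcripts, Cyba was at 2.49 (SE 1.38). The median over the 7 was 1.24, beside -0.03 over all genes tested.

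The B cell marker list moved with this comparison, at 0.19 to 4.58 in SF_ConD and 0.27 to 0.60 in SC_ConD libraries, and all 12 of its genes were higher in SF_ConD, 3 of them at an unadjusted p under 0.05. T and NK cell markers moved too, at 0.40 to 5.14 in SF_ConD and 0.47 to 1.24 in SC_ConD. All 12 were higher, 6 of them at an unadjusted p under 0.05 in limma, beside 5.74% of all genes. Without the 5 libraries rich in B cell transcripts, Cybb, Cyba and Ncf4 had the opposite sign, at -0.37, -0.57 and -0.53, and Rac2 and Ncf1 were at 0.02 and 0.06. Cybc1 was at 0.79 (SE 0.59, unadjusted p = 0.211, adjusted p = 0.9999) in that fit, and at 1.14 (SE 0.49, unadjusted p = 0.0393, adjusted p = 0.9997) with the B cell marker level as a covariate. Macrophage markers spanned 2.87 to 5.59 in SF_ConD and 3.69 to 5.07 in SC_ConD, with 7 of 12 genes higher and 5 lower and a median log2 fold change of 0.02. None of the 12 was higher at an unadjusted p under 0.05 and 2 were lower, the tissue macrophage receptors Mrc1 at -0.97 (SE 0.37) and Cd163 at -1.24 (SE 0.57). With the macrophage marker level as a covariate, 4 of the 7 oxidase genes had an unadjusted p under 0.05, Ncf1, Ncf4, Rac2 and Cybc1, beside 8.46% of all genes in that fit, and none passed after adjustment. Neutrophil markers spanned 1.04 to 3.16 in SF_ConD and 1.15 to 1.91 in SC_ConD, with 6 higher and 3 lower of the 9 that passed the filter. S100a8 was at 3.77 to 157 FPKM in SF_ConD and 2.91 to 32.4 in SC_ConD. The neutrophil surface gene Ly6g did not pass the filter and reached at most 0.831 FPKM and 9 reads. It was at 0 in all SC_ConD libraries and in SF_ConD 1, 2 and 3. The part of these cells in the result was not tested further. Without SC_ConD 1 the count of all genes that passed was 194, with none of the 7 among them.

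Adding the high-protein diet to fragmented sleep gave no member that passed the test, and the 7 genes took both signs. Of all genes 0 passed after adjustment in limma (0%), and 273 (1.89%) had an unadjusted p under 0.05, none of them a member. No member's groups were apart, beside 0.458% of all genes. Rac2 had the largest difference, at -1.58 for SF_HPD over SF_ConD (SE 1.16, unadjusted p = 0.198, adjusted p = 1), at -0.93 without the library labelled SF_HPD 2 and at -2.43 without SF_ConD 3. The others were at -0.79 for Ncf4 (SE 0.79), -0.54 for Cyba (SE 0.80), -0.41 for Cybc1 (SE 0.39), -0.13 for Nox4 (SE 0.27), 0.05 for Cybb (SE 0.56) and 0.17 for Ncf1 (SE 0.69). The median over the 7 was -0.41, beside 0.01 over all genes.

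Rich libraries numbered 2 of 5 in SF_HPD and 3 of 5 in SF_ConD, and all 12 B cell markers were lower in SF_HPD, none at an unadjusted p under 0.05. Without them Rac2 was at -0.54 (SE 0.80), and Cyba, Ncf4, Cybc1 and Nox4 turned positive, at 0.71, 0.21, 0.32 and 0.01. Without the library labelled SF_HPD 2, Cybb was at 0.47, Ncf1 at -0.14, Cybc1 at -0.65 and Nox4 at -0.03. With 1 library left out in turn, Cyba ranged over -0.995 to -0.0921 and Ncf4 over -1.39 to -0.37, in both cases between the fits without SF_ConD 3 and without SF_ConD 1.

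Set against undisturbed sleep on chow, fragmented sleep with the diet again showed 6 of 7 genes higher and Nox4 lower, with none past the adjusted threshold. This comparison shares its SC_ConD libraries with the first, so the signs of both rest in part on the same 3 libraries. In limma 0 of 14421 genes passed (0%) and 531 (3.68%) had an unadjusted p under 0.05. Ncf1 was at 1.82 for SF_HPD over SC_ConD (SE 0.80, unadjusted p = 0.0395, adjusted p = 0.9999) and Cybc1 at 1.14 (SE 0.45, unadjusted p = 0.0248, adjusted p = 0.9999), and these were the 2 members among the 531. Cybc1 was the 1 member whose groups did not overlap, beside 1.64% of all genes. The remaining log2 fold changes were 0.97 for Rac2 (SE 1.34), 0.78 for Cybb (SE 0.65), 0.44 for Ncf4 (SE 0.91), 0.41 for Cyba (SE 0.93) and -0.32 for Nox4 (SE 0.31). The median over the 7 was 0.78, beside 0.02 over all genes.

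In SF_HPD over SC_ConD, the library labelled SF_HPD 2 had the highest Ncf1 of all 13 libraries and the highest Cybc1 of its group. Without it Ncf1 was at 1.52 (SE 0.81, unadjusted p = 0.0848, adjusted p = 0.936) and Cybc1 at 0.91 (SE 0.42, unadjusted p = 0.0532, adjusted p = 0.936), while Cybb was at 1.20 (SE 0.57, unadjusted p = 0.0551, adjusted p = 0.936) and Rac2 at 1.62 (SE 1.31). The highest and lowest values with 1 library left out were 0.87 and -0.36 for Cyba, 0.89 and -0.06 for Ncf4, each without SC_ConD 2 and without SC_ConD 1, and Nox4 was at -0.68 without SC_ConD 2. With the replicate number as a block, Ncf1 was at 1.44 (SE 0.89) and Cybc1 at 0.99 (SE 0.54), and 0 members had an unadjusted p under 0.05, beside 2.89% of all genes in that fit. B cell markers spanned 0.07 to 4.20 in SF_HPD and 0.27 to 0.60 in SC_ConD. Without the libraries rich in them, Ncf1 was at 1.67, Cybc1 at 1.12, Rac2 at -0.53 and Ncf4 at -0.33, and 0 members had an unadjusted p under 0.05, beside 1.82% of the 12940 genes kept. The library labelled SF_HPD 2 is 1 of the 3 SF_HPD libraries in that fit and the highest of them in Ncf1 and Cybc1. Without it as well, an alternative added after the data were seen, Ncf1 was at 0.99 (SE 0.66), Cybc1 at 0.63 (SE 0.46) and Rac2 at 0.03 (SE 0.70). Without SC_ConD 1, 195 of all genes passed, with no member among them.

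**Figure D3:**
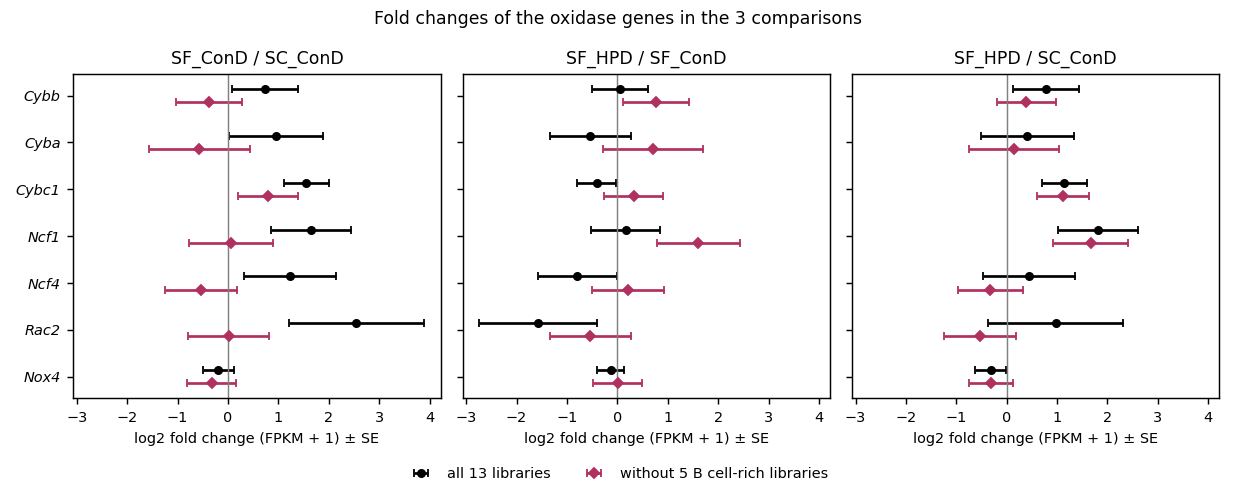
Log2 fold change (FPKM + 1) with its standard error for each oxidase gene in the comparisons SF_ConD over SC_ConD, SF_HPD over SF_ConD and SF_HPD over SC_ConD; black circles are from all 13 libraries and red diamonds from the fit without the 5 libraries rich in B cell transcripts. Rac2 in SF_ConD over SC_ConD was at 2.55 with all libraries and 0.02 without those 5, and Ncf1 in SF_HPD over SC_ConD was at 1.82 and 1.67, where the reduced fit keeps the library labelled SF_HPD 2 and gives no unadjusted p under 0.05 for it.

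Cyba and Cybb encode partners in 1 complex, but their transcripts were not in a fixed ratio. The Cyba to Cybb FPKM ratio was 6.44, 231, 24.7, 4.75 and 71.0 in SF_HPD libraries, 66.2, 37.1, 41.9, 21.5 and 36.4 in SF_ConD libraries, and 7.67, 94.0 and 70.9 in SC_ConD libraries. It was below 10 in SF_HPD 1, SF_HPD 4 and SC_ConD 1 and above 20 in the other 10 libraries. Cyba is short (1039 bases) and Cybb long (5808 bases), and in these 3 libraries long genes as a whole read higher. The rank correlation across genes between log2 length and the library's deviation from the mean of all libraries was 0.56, 0.48 and 0.56 in them. SF_ConD 3 had a correlation of 0.49 and a ratio of 41.9, and the other 9 libraries had correlations of -0.44 to 0.03. The part of this length trend in the ratio was not tested. With the length trend as a covariate, an alternative added after the data were seen, 2 of the 7 genes had an unadjusted p under 0.05 in SF_ConD over SC_ConD, beside 11.6% of all genes in that fit, Cybc1 at 1.52 (SE 0.42) and Ncf1 at 1.52 (SE 0.61).

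**Figure D4:**
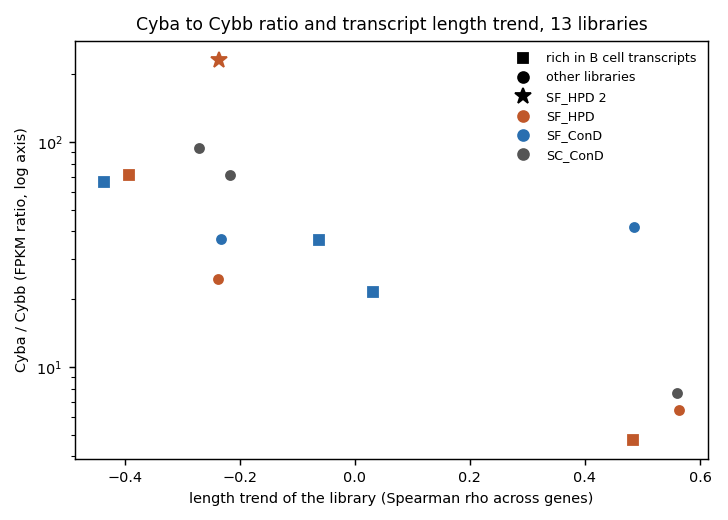
Cyba to Cybb FPKM ratio (log axis) against the length trend of the library, the Spearman correlation across genes between log2 gene length and the library's deviation from the mean of all libraries; 1 point per library coloured by group. SF_HPD 1, SF_HPD 4 and SC_ConD 1 have ratios of 6.44, 4.75 and 7.67 at length trends of 0.56, 0.48 and 0.56, and SF_ConD 3 has 41.9 at 0.49.

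For each member, the 3 named genes with the most similar order of libraries were found by Spearman correlation of FPKM over the 13 libraries. These are given without a p because the libraries fall into the sets described above and share their composition and length trend. Nearest to Cybb were Cpxm1 (0.978), Myo1f (0.978) and Arhgap30 (0.951), and nearest to Cyba were Aif1 (0.973), Sp140 (0.973) and Psmb8 (0.967). Ncf1 was nearest to Larp7 (0.956), Pdk3 (0.945) and Sh3bgrl3 (0.945), and Cybc1 to Ly6k (0.977), Them6 (0.967) and Gna15 (0.962). Ncf4 was nearest to Neurl3 (0.989), Cnn2 (0.978) and Arhgap15 (0.973). Rac2 was nearest to Clec2i, Il2rg and Tlr1 (0.978 each). The closest to Nox4 were Slc10a7 (0.852), Snorc (0.851) and Cd200 (0.841), lower values than for any other member. Without the library labelled SF_HPD 2 (n = 12) the same pairs had values of 0.797 to 0.993.

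Other genes of the oxidase family were mostly near the limit of detection. Rac1 passed the filter and had log2 fold changes of 0.05 (SE 0.31) for SF_ConD over SC_ConD, 0.00 (SE 0.27) for SF_HPD over SF_ConD and 0.06 (SE 0.31) for SF_HPD over SC_ConD, none with an unadjusted p under 0.05. Nox1, Nox3, Noxa1 and Duox2 reached at most 0.314 FPKM, and Noxo1 and Duoxa2 at most 0.786 and 1.014. Duox1 and Duoxa1, an epithelial oxidase and its maturation factor, were highest in the library labelled SF_HPD 2, at 3.20 and 26.6 FPKM.

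Of 20 genes that signal to the oxidase, such as Fc receptors, integrins and kinases, 17 were higher and 3 lower in SF_ConD over SC_ConD, with a median of 0.67, and 2 had an unadjusted p under 0.05, beside 5.74% of all genes. These were Prkcd, a kinase that phosphorylates p47phox, at 0.99 (SE 0.44, adjusted p = 0.861) and Btk, a kinase of B cells and myeloid cells, at 1.56 (SE 0.69, adjusted p = 0.861). In SF_HPD over SF_ConD, 4 were higher and 16 lower, with none at an unadjusted p under 0.05, beside 1.89% of all genes. In SF_HPD over SC_ConD, 12 were higher and 8 lower. Prkcd was the 1 gene with an unadjusted p under 0.05, beside 3.68% of all genes, at 1.07 (SE 0.44, adjusted p = 0.9999). Prkcd averaged 5.85 ± 2.33 FPKM in SF_HPD, 5.70 ± 2.93 in SF_ConD and 2.37 ± 1.56 in SC_ConD. The mean of this list was 3.06 to 3.93 in the 5 libraries rich in B cell transcripts and 1.61 to 3.01 in the other 8.

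Enzymes that remove superoxide and peroxide or counter oxidant stress were mostly lower in sign over SC_ConD, with none past the test. Of 21 genes, 3 were higher and 18 lower in SF_ConD over SC_ConD (median -0.40, none at an unadjusted p under 0.05), and 5 were higher and 16 lower in SF_HPD over SC_ConD (median -0.43, none). Of all 14421 genes, 7586 and 6955 were lower in these comparisons, with medians of -0.03 and 0.02. Prdx6, a peroxide-removing peroxiredoxin, averaged 53.2 ± 20.95 FPKM in SF_HPD, 53.2 ± 15.02 in SF_ConD and 107.5 ± 57.1 in SC_ConD. Its log2 fold change over SC_ConD was -0.94 (SE 0.50) for SF_HPD and -0.86 (SE 0.50) for SF_ConD, both short of the threshold (unadjusted p = 0.084 and 0.11 in limma). In SF_HPD over SF_ConD, 12 were higher and 9 lower. Gpx3, the secreted glutathione peroxidase, was the 1 gene with an unadjusted p under 0.05, beside 1.89% of all genes, at -1.70 (SE 0.77, unadjusted p = 0.0463, adjusted p = 1). Gpx3 averaged 660 ± 723 FPKM in SF_HPD, 1438 ± 713 in SF_ConD and 1075 ± 429 in SC_ConD. The SF_HPD values of this list include the library labelled SF_HPD 2 and are not given without it. Liver markers moved with the comparisons over SC_ConD, at 2.94 to 3.66 in SF_HPD, 2.69 to 5.32 in SF_ConD and 3.88 to 10.2 in SC_ConD (mean log2(FPKM + 1)), and their part in these values was not tested.

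Among 7 enzymes that supply NADPH, the electron donor of the oxidases, 1 was higher and 6 lower in SF_ConD over SC_ConD, 3 higher and 4 lower in SF_HPD over SF_ConD, and 2 higher and 5 lower in SF_HPD over SC_ConD. Tkt, transketolase of the pentose phosphate pathway, was the 1 gene with an unadjusted p under 0.05, in SF_HPD over SC_ConD, at -1.32 (SE 0.59, unadjusted p = 0.0435, adjusted p = 0.9999). Of all genes, 3.68% were under it in that comparison, 5.74% in SF_ConD over SC_ConD and 1.89% in SF_HPD over SF_ConD. The call is therefore not read as a result about this list. Tkt averaged 64.8 ± 32.3 FPKM in SF_HPD, 133.5 ± 93.6 in SF_ConD and 162 ± 90.0 in SC_ConD. G6pdx, the first enzyme of that pathway, averaged 35.6 ± 21.1 FPKM in SF_HPD, 21.3 ± 7.43 in SF_ConD and 31.3 ± 7.26 in SC_ConD. Here too the SF_HPD values include the library labelled SF_HPD 2 and are not given without it.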

How the data were processed

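RNA-seq of inguinal fat from 13 mice was analysed from 1 deposited table of FPKM per gene. The authors' values are FPKM, per the file headers; CASAVA, HISAT2 2.0.5, featureCounts 1.5.0-p3 and build mm8 are named in the submitters' processing notes, without a role. Of 54532 gene identifiers 53499 had the same start and end in GENCODE M21, so coordinates are on GRCm38. FPKM times length came out whole, within 0.05 of a read, for 100% of values in each library, giving 14815592 to 18303302 reads. The divisor behind the deposited FPKM was 0.479 to 1.23 times those reads and followed median-of-ratios size factors within 0.947 to 1.03 of their mean, so FPKM sums differ 5.03-fold between libraries.

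Genes reaching 1 FPKM or more in 3 or more libraries were tested on log2(FPKM + 1) with limma 3.58.1 (R 4.3.3), empirical Bayes with trend and robust, all 13 libraries in 1 fit, two-sided, Benjamini-Hochberg adjustment over 14421 genes, threshold 0.05. A fold change on this scale understates that of low genes. The fit was run on simulated reads with 200 changed genes. Those reads had a fixed spread and no differences in cell content or length trend between libraries. They therefore do not show how the fit performs on these libraries. The oxidase genes and all gene lists were chosen with earlier results of these data known. Named genes are all members, up to 3 genes with the smallest p of each further oxidase list per comparison, the 3 genes most like each member, and defining cell markers. Alternatives were pseudocount, filter, scaling, variance model, samples in the fit, replicate block, limma-voom on recovered reads, marker covariates, and libraries left out. Same-numbered SF_HPD and SC_ConD libraries deviated together (correlations 0.711, 0.333 and 0.191), but the labels give no source for pairing. The main fit was unpaired in every comparison. The replicate block was run only as an alternative, in each comparison. One item of the wider oxidase gene list is not reported here.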

Additional observations from a re-analysis of the deposited data

How the results depend on the processing

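In limma no oxidase gene passed after adjustment under any alternative run, and the count of all genes that passed was 0 under each alternative that left in every replicate, limma-voom on recovered reads included. Leaving out 1 replicate gave 0 to 194 genes in SF_ConD over SC_ConD, 0 to 1 in SF_HPD over SF_ConD and 0 to 195 in SF_HPD over SC_ConD. Members with an unadjusted p under 0.05 numbered 1, 0 and 2 in these comparisons, beside 5.74%, 1.89% and 3.68% of all genes. With 1 replicate left out they numbered 1 to 4, 0 to 1 and 0 to 2. In SF_ConD over SC_ConD they numbered 4 with macrophage markers as a covariate (8.46% of all genes) and 2 with the length trend as a covariate (11.6%). They numbered 2 after rescaling to TPM, and 0 without the libraries rich in B cell transcripts or without those rich in liver transcripts. In SF_HPD over SC_ConD they numbered 1 by limma-voom, and 0 with the B cell covariate and without the libraries rich in liver transcripts. They also numbered 0 with the replicate block (2.89% of all genes) and without the libraries rich in B cell transcripts (1.82%). Where no share is given it was not computed, and the count is not read as a result about the members. With TPM the median log2 fold change of all genes was 0.15 in SF_ConD over SC_ConD and 0.25 in SF_HPD over SC_ConD, beside -0.03 and 0.02. The replicate block changed no other count of calls and gave 0 genes passing in each comparison.

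With the B cell covariate, signs turned in SF_ConD over SC_ConD for Cybb (-0.31), Cyba (-0.15), Ncf4 (-0.47) and Rac2 (-0.24), in SF_HPD over SF_ConD for Ncf4 (2e-04), and in SF_HPD over SC_ConD for Cyba (-0.18), Ncf4 (-0.47) and Rac2 (-0.52). Without the libraries rich in B cell transcripts, they turned in SF_ConD over SC_ConD for Cybb (-0.37), Cyba (-0.57) and Ncf4 (-0.53), in SF_HPD over SF_ConD for Cyba (0.71), Ncf4 (0.21), Cybc1 (0.32) and Nox4 (0.0079), and in SF_HPD over SC_ConD for Ncf4 (-0.33) and Rac2 (-0.53). With the replicate block Ncf4 (-0.25) and Rac2 (-0.27) turned in SF_HPD over SC_ConD, and with quantile normalization Nox4 turned in SF_HPD over SF_ConD (0.0487). Leaving out 1 replicate gave -0.27 to 0.47 for Cybb and -0.42 to 0.56 for Ncf1 in SF_HPD over SF_ConD, and -0.36 to 0.87 for Cyba and -0.0644 to 0.89 for Ncf4 in SF_HPD over SC_ConD. Another fit left out SF_HPD 2 and the libraries rich in B cell transcripts, an alternative added after the data were seen. It kept SF_HPD 1 and 3 and SF_ConD 2 and 3 beside the SC_ConD libraries. Members with an unadjusted p under 0.05 in limma numbered 0, 1 and 1, the 1 being Cybb (1.40 and 1.03). With all libraries Cybb was at 0.05 and 0.78. The share of all genes was not computed for this fit, so the count is not read as a result about Cybb. In this fit signs turned in SF_ConD over SC_ConD for the same 3 genes with the same values, in SF_HPD over SF_ConD for Cyba (0.48), Ncf4 (0.25), Rac2 (0.0144) and Nox4 (0.21), and in SF_HPD over SC_ConD for Cyba (-0.0891) and Ncf4 (-0.28). The cause of these turns was not tested. Cybc1 over SC_ConD stayed positive under every alternative run, at 0.79 to 1.82 for SF_ConD and 0.63 to 1.40 for SF_HPD. Its groups did not overlap there, so leaving out libraries could not turn its sign. Ncf1 over SC_ConD also stayed positive, at 0.06 to 2.24 for SF_ConD and 0.99 to 2.42 for SF_HPD. Nox4 over SC_ConD stayed negative in both wherever it gave a value. Nox4 gave no value where the filter or the libraries left out removed it, and its 14 to 194 reads limit its precision.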
